A study of Mus musculus with 12 samples.

Results

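The lens epithelial transcription factors described here are 8 genes, *Pax6*, *Foxe3*, *Pitx3*, *Six3*, *Tfap2a*, *Mab21l1*, *Meis1* and *Meis2*, named for their roles in the lens epithelium and its precursors and chosen with earlier results of these data known. They are 8 of 55487 genes in the count table, and all 8 were among the 8984 genes tested, those that reached 5 CPM (counts scaled to a common library total) in 3 or more libraries. RNA was measured in whole lenses at P7 (postnatal day 7) by poly-A selected RNA-seq in 12 libraries, 3 for each of 4 genotypes kept on the B6J (C57BL6/J) background. Wild-type (WT) lenses carried no *Trpm3* change. The p.I65M substitution in the cation channel TRPM3, introduced by CRISPR/Cas-9 editing, was carried on 1 allele in *Trpm3*-I/M lenses (heterozygous) and on both in *Trpm3*-M/M lenses (homozygous), and *Trpm3*-KO lenses came from mice in which *Trpm3* was disrupted by homologous recombination. No lens-specific driver was named for either allele, so neither was restricted to the lens. The methods describe each library as pooled from 4 male with 4 female lenses, and no label ties a library to single animals, so p-values measure the spread between pools.

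The genotypes set the p.I65M allele, on 1 or both chromosomes, and a disrupted *Trpm3* gene each against WT at the same age. The total counted on genes ran from 56162169 to 82090198 per library, and the 8 genes together held 19407 to 29836 counts. *Trpm3* itself reached 268.5 ± 17.3 CPM (SD, n = 3) in WT lenses and 95.3 ± 5.02 CPM (SD, n = 3) in *Trpm3*-KO lenses. *Trpm3*-I/M replicate 3 stood apart in sex-linked RNA, with *Xist* at 0.0721 CPM against 45.8 to 305 CPM in the other 11 libraries, which goes against its description as a mixed-sex pool. Fold changes of the 8 genes in comparisons of *Trpm3*-I/M are therefore also given without it. The 16 crystallin genes counted here took 61.0% to 63.9% of the counts in WT and 59.9% to 62.2% in KO libraries, against 57.1% to 58.2% in heterozygous and 49.4% to 51.3% in homozygous mutant libraries. Libraries were therefore scaled with TMM factors (trimmed mean of M-values), so every change below is measured against the bulk of the expressed genes. When libraries were scaled by their totals alone (library size only), the typical tested gene sat 0.50 higher on the log2 scale in homozygous, 0.20 in heterozygous and 0.049 in KO lenses.

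As background, the anterior lens epithelium is a single cell layer that supplies the fiber cells making up the bulk of the lens. *Pax6*, a paired-domain and homeodomain factor, is required for the lens to form and is kept on in the epithelium after fiber cells differentiate. *Foxe3*, a forkhead factor, keeps epithelial cells dividing and is needed for the lens vesicle to separate from the surface ectoderm, and *Pitx3* is a homeodomain factor whose loss in the mouse causes aphakia. *Six3* is a homeodomain factor of early lens and forebrain, *Tfap2a* encodes the AP-2 alpha factor of surface ectoderm and lens epithelium, and *Mab21l1* encodes a protein needed for growth of the lens placode. *Meis1* and *Meis2* are TALE homeodomain factors that act on *Pax6* in the early lens ectoderm together with PBX partners.

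The 250 bases upstream of the transcription start are shown for the 5 genes that passed the test described below in both mutants, so that their start regions can be set side by side. RefSeq (GRCm38.p6) gave start windows for 7 of the 8 genes, 9 windows in all, and *Mab21l1* was not among them. Both strands were searched for 7 short motifs: the MEIS core TGACAG, the bicoid-type TAATCC, the homeodomain letters TAATTA, the AP-2 letters GCCNNNGGC, the forkhead letters GTAAACA, the TATA box TATAAA and the CCAAT box CCAAT. Capitals mark matches, all sequences read 5′ to 3′ on the strand of the gene, and no motif match overlapped another in the sequences printed.
Foxe3: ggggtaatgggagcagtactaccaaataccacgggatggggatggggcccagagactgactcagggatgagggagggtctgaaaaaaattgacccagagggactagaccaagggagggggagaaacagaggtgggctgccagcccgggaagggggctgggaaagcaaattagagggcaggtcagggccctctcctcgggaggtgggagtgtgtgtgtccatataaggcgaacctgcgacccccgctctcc
Meis2: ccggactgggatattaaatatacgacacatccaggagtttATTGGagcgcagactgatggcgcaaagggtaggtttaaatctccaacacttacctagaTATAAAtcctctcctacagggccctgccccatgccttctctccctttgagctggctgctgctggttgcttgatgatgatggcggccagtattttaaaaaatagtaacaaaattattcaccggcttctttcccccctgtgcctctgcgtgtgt
Meis1: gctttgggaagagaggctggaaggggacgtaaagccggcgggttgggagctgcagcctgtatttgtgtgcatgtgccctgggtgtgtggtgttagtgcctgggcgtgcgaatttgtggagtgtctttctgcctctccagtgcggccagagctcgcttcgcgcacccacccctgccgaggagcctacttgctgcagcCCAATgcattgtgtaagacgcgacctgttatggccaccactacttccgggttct
Pax6: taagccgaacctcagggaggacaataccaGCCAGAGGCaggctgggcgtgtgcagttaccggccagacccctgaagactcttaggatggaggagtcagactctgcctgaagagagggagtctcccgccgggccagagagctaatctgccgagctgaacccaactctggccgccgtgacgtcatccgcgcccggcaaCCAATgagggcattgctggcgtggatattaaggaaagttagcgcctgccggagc
Pitx3: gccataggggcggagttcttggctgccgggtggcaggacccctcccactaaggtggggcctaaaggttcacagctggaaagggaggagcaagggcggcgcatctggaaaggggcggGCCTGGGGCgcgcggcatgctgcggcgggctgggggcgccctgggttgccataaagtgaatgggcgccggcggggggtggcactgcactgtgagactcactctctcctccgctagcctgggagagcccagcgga
The *Foxe3* window, chr4:114926068-114926317 on the reverse strand, held none of the 7 motifs. The *Meis2* window, chr2:116064620-116064869 on the reverse strand, held a CCAAT box and TATA letters starting 210 and 152 bases before the start, where 33.8% and 12.4% of 32851 windows held them. The *Meis1* window, chr11:19018970-19019219 on the reverse strand, held a CCAAT box 54 bases before the start. In the upstream *Pax6* window, chr2:105668646-105668895 on the forward strand, an AP-2 match and a CCAAT box began 221 and 54 bases before the start. A second *Pax6* start, with its window at chr2:105682213-105682462, had a MEIS core 159 bases upstream, as did *Six3* at 139 bases. The MEIS core occurred in 15.9% of all windows. The *Pitx3* window, chr19:46148326-46148575 on the reverse strand, held an AP-2 match, a motif found in 13.7% of windows. The printed windows of *Meis2*, *Meis1* and *Pax6* each held a CCAAT box, a motif found in 33.8% of all windows. These matches are descriptions of sequence only.

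Levels of different genes were compared per kilobase of the union of annotated exons (GRCm38, GENCODE M21). In WT lenses the order began with *Foxe3* at 105 ± 16.2 CPM per kilobase (SD, n = 3) and *Pitx3* at 52.9 ± 1.32. *Mab21l1* at 14.9 ± 3.58 and *Six3* at 11.2 ± 1.33 came next, and their libraries overlapped, so these neighbors did not differ beyond their spread. *Pax6* followed at 7.31 ± 0.421, *Tfap2a* at 5.10 ± 0.235, *Meis2* at 2.61 ± 0.202 and *Meis1* at 0.580 ± 0.0723 CPM per kilobase. The *Foxe3* model is a single exon of 867 bases at chr4:114925147-114926013, reverse strand, and its short length raises its level on this scale. *Trpm3*-KO lenses had the same order, there with no overlap between *Mab21l1* and *Six3*. In *Trpm3*-I/M lenses *Pitx3* at 61.9 ± 1.28 stood beside *Foxe3* at 53.8 ± 7.95 CPM per kilobase, with overlapping libraries. In *Trpm3*-M/M lenses *Pitx3* at 65.4 ± 3.74 lay above *Foxe3* at 22.1 ± 2.08 in every library, *Six3* passed *Mab21l1*, and *Tfap2a* passed *Pax6*. As a share of the summed level per kilobase of the 8 genes, *Foxe3* made up 52.4% ± 2.82 in WT and 18.4% ± 0.873 in *Trpm3*-M/M lenses, while *Pitx3* made up 26.8% ± 3.27 and 54.6% ± 0.449 (SD, n = 3 each).

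**Figure D1:**
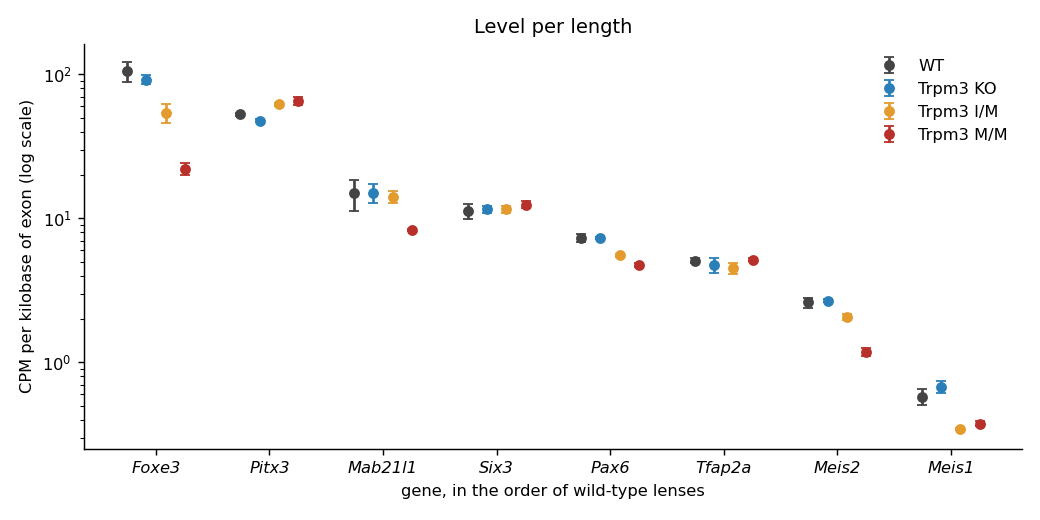
Mean level of each gene in CPM per kilobase of exon (log axis, bars are SD over 3 libraries) in the 4 genotypes, with genes in the order of WT lenses. *Foxe3* led in WT at 105 and stood at 22.1 in *Trpm3*-M/M lenses, below *Pitx3* at 65.4.

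*Trpm3*-M/M lenses differed from WT in 6 of the 8 genes: *Foxe3*, *Meis2*, *Mab21l1*, *Meis1* and *Pax6* fell, and *Pitx3* rose. *Six3* and *Tfap2a* did not pass the test. A gene passed at an adjusted p of 0.05 or less (quasi-likelihood F-test of edgeR, Benjamini-Hochberg adjustment over all tested genes). In the same comparison 62.7% of all tested genes passed, 31.4% as lower and 31.4% as higher, so 6 of 8 is a share near the background. Under library size only 7859 of 8984 tested genes were called, 93.7% of them higher. The members' count was also 6, but with 3 lower (*Foxe3*, *Meis2* and *Mab21l1*) and 3 higher (*Pitx3*, *Six3* and *Tfap2a*). Thresholds that also ask for a fold change of at least 2 left *Foxe3* and *Meis2*, where 8.95% of all genes and 2.53% in the lower direction passed, and *Meis2* lost this when only library size was used (−0.63). In whole-lens RNA, fewer cells of a type and less RNA per cell cannot be told apart.

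*Foxe3* moved most. Its TMM-scaled level was 105, 90.8 and 76.7 CPM in WT libraries and 18.3, 21.2 and 17.9 CPM in *Trpm3*-M/M libraries. The groups did not overlap, and the *Trpm3*-I/M libraries at 54.5, 43.7 and 41.7 CPM lay between them. The log2 fold change in *Trpm3*-M/M against WT was −2.24 (standard error 0.12, edgeR adjusted p = 4.57e-09), a 4.73-fold lower level. Only 0.323% of tested genes had a lower log2 fold change than *Foxe3*.

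Among the TALE factors, *Meis2* stood at 29.1, 31.2 and 33.9 CPM in WT and at 14.8, 13.2 and 14.7 CPM in *Trpm3*-M/M libraries, with no overlap. It fell by 1.14 on the log2 scale (standard error 0.06, edgeR adjusted p = 4.37e-09). *Meis1*, the least abundant of the 8 genes, had 6.92, 5.99 and 5.41 CPM in WT and 4.06, 4.07 and 3.78 CPM in *Trpm3*-M/M libraries. It fell by 0.62 (standard error 0.10, edgeR adjusted p = 1.10e-04). Under library size only the *Meis1* change was −0.11 and did not pass (edgeR adjusted p = 0.346).

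*Pax6* had 90.9, 83.9 and 81.5 CPM in WT and 55.2, 54.4 and 57.3 CPM in *Trpm3*-M/M libraries, a tight pair of groups with no overlap. It fell by 0.62 on the log2 scale (standard error 0.05, edgeR adjusted p = 9.77e-08). With library size only, its change was −0.11 (edgeR adjusted p = 0.119), so a fall was detected relative to the bulk of the genes and not as a share of all counts. *Mab21l1* had 43.3, 41.1 and 26.9 CPM in WT libraries, where replicate 3 was low, and 21.1, 20.8 and 20.4 CPM in *Trpm3*-M/M libraries. Its log2 fold change was −0.84 (standard error 0.15, edgeR adjusted p = 3.15e-04). Without WT replicate 3 it was −1.03, and among all fits that each left out 1 library the smallest fall was −0.72. With library size only the *Mab21l1* change was −0.33 (edgeR adjusted p = 0.0482). *Mab21l1* lies within the gene *Nbea* on the opposite strand and shares 981 exon bases with it, and the strand setting of the counting was not given in the sources used here. *Nbea* did not pass the test (log2 fold change −0.08, edgeR adjusted p = 0.383).

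*Pitx3* was the one member that rose. It had 78.4, 82.1 and 81.7 CPM in WT and 98.5, 106 and 94.8 CPM in *Trpm3*-M/M libraries. The groups did not overlap, and the log2 fold change was 0.31 (standard error 0.05, edgeR adjusted p = 8.34e-05), which became 0.81 with library size only.

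*Six3* had 68.6, 59.6 and 54.3 CPM in WT and 71.7, 67.6 and 64.5 CPM in *Trpm3*-M/M libraries, with overlap. Its log2 fold change was 0.16 (95% interval −0.01 to 0.33, edgeR adjusted p = 0.0959). Without WT replicate 1, the highest WT library for *Six3*, the change was 0.25 and passed (edgeR adjusted p = 0.00958), and without WT replicate 3, the lowest, it was 0.08 (adjusted p = 0.386). *Six3os1*, on the opposite strand of *Six3* with 106 shared exon bases, had 112.0 ± 3.23 CPM (SD, n = 3) in WT and 75.3 ± 1.37 CPM in *Trpm3*-M/M lenses. *Six3os1* fell by 0.57 on the log2 scale (edgeR adjusted p = 1.93e-07) while *Six3* did not pass. Scaled by library size only, *Six3os1* had 98.3 ± 7.26 CPM in WT and 94.0 ± 2.93 CPM in *Trpm3*-M/M lenses (SD, n = 3 each). *Tfap2a*, at 26.3, 24.4 and 24.3 CPM in WT and 24.8, 25.7 and 25.5 CPM in *Trpm3*-M/M libraries, had a log2 fold change of 0.02 (95% interval −0.15 to 0.19, edgeR adjusted p = 0.842). By library size only both *Six3* (0.67) and *Tfap2a* (0.53) passed as higher.

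**Figure D2:**
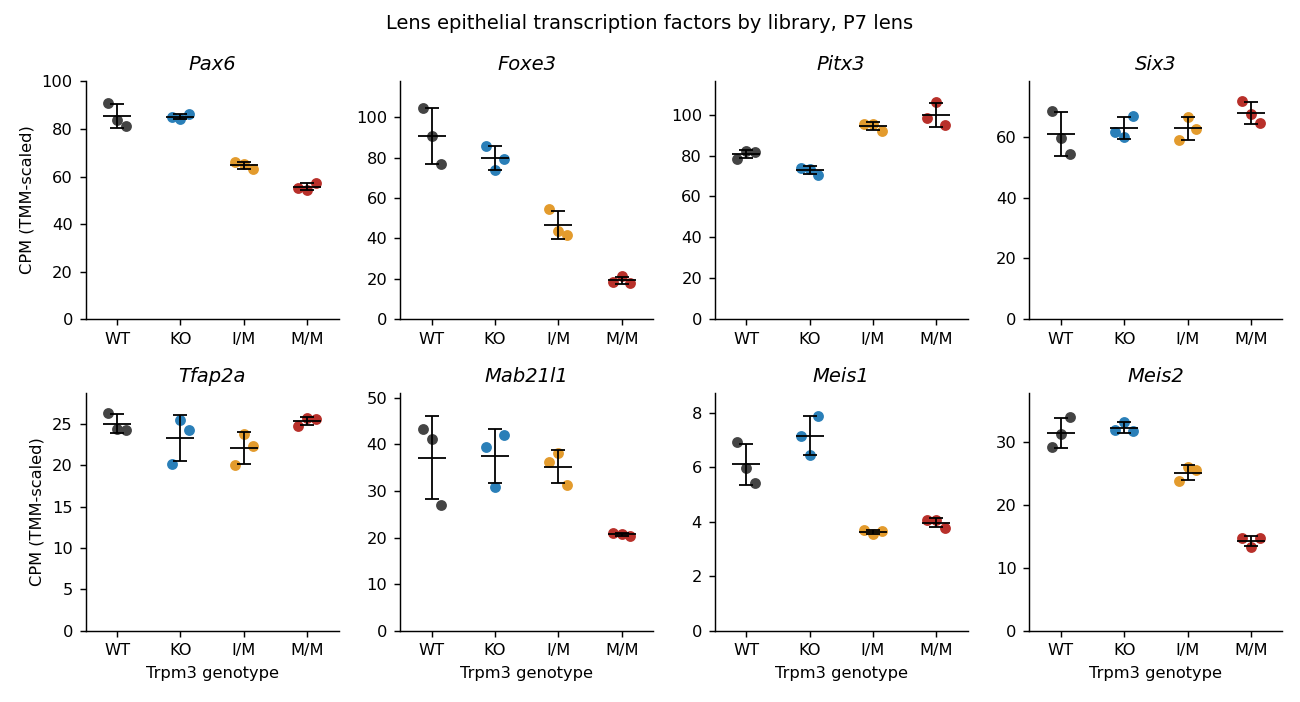
Level of each gene in every library (points, TMM-scaled CPM, linear axis from 0) by *Trpm3* genotype, with the mean and SD of 3 libraries. *Foxe3* and *Meis2* stepped down from WT through I/M to M/M, *Meis1* was as low in I/M as in M/M, and *Mab21l1* was low in M/M only.

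*Trpm3*-I/M lenses differed from WT in 5 of the 8 genes, against 32.6% of all tested genes (15.3% lower and 17.3% higher). *Foxe3*, *Meis1*, *Pax6* and *Meis2* fell and *Pitx3* rose. No member reached a fold change of 2, a threshold that 3.33% of all genes passed. *Foxe3* fell by 0.96 on the log2 scale (standard error 0.12, edgeR adjusted p = 3.95e-05), and its libraries did not overlap with WT. *Meis1*, at 3.68, 3.55 and 3.65 CPM, fell by 0.75 (standard error 0.10, edgeR adjusted p = 8.32e-05). *Pax6*, at 66.0, 65.2 and 63.2 CPM, fell by 0.40 (standard error 0.05, edgeR adjusted p = 2.42e-05). The fall was 1.32-fold for *Pax6*, against 1.95-fold for *Foxe3* and 1.68-fold for *Meis1*. *Meis2*, at 23.7, 26.0 and 25.6 CPM, fell by 0.32 (standard error 0.06, edgeR adjusted p = 0.00131), and with library size only it did not pass (−0.12, adjusted p = 0.144). *Pitx3*, at 95.6, 95.5 and 92.2 CPM, rose by 0.23 (standard error 0.05, edgeR adjusted p = 0.00266). Scaled by library size only, 3 genes were lower (*Foxe3*, *Meis1* and *Pax6*) and 2 higher (*Pitx3* and *Six3*), where 5016 of 8984 tested genes passed.

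The other 3 genes did not pass in *Trpm3*-I/M lenses. *Mab21l1* at 36.1, 38.2 and 31.2 CPM overlapped with WT, and its log2 fold change was −0.08 (95% interval −0.40 to 0.25). For *Six3*, at 59.1, 66.6 and 62.7 CPM, it was 0.05 (95% interval −0.13 to 0.22). *Tfap2a*, at 20.0, 23.8 and 22.3 CPM, had −0.18 (95% interval −0.35 to −0.01, edgeR adjusted p = 0.106). Without *Trpm3*-I/M replicate 3 the same 5 genes passed, with log2 fold changes of −0.89 for *Foxe3*, −0.76 for *Meis1*, −0.38 for *Pax6*, −0.34 for *Meis2* and 0.24 for *Pitx3*. The other 3 again did not pass, at 0.0016 for *Mab21l1*, 0.05 for *Six3* and −0.19 for *Tfap2a*.

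None of the 8 genes passed in *Trpm3*-KO lenses, where 4.36% of all tested genes did by the same edgeR test. DESeq2 also called 0 of them, where it called 554 of all 8984 tested genes. At an unadjusted p under 0.05 (edgeR) there were 2, *Pitx3* and *Meis1*. By p they ranked 653 and 1435 among the 8984 tested genes, so 1435 or more genes lay under 0.05. *Foxe3* stood at 85.7, 73.8 and 79.5 CPM, within the WT range in 2 of 3 libraries, with a log2 fold change of −0.19 (95% interval −0.44 to 0.07). For *Pax6*, at 85.2, 84.0 and 86.3 CPM, the 95% interval was −0.11 to 0.10, and for *Meis2*, at 31.8, 33.2 and 31.7 CPM, it was −0.09 to 0.17. *Pitx3*, at 74.1, 73.5 and 70.6 CPM, lay below every WT library with a log2 fold change of −0.15 (95% interval −0.25 to −0.05, edgeR adjusted p = 0.104). *Meis1*, at 7.14, 6.44 and 7.87 CPM, had 0.23 (95% interval 0.01 to 0.44, edgeR adjusted p = 0.243). By library size, the scale of the filter, *Meis1* reached 5 CPM in WT replicate 1, *Trpm3*-M/M replicate 2 and all 3 KO libraries. It therefore passed the filter only through the KO libraries, where it is highest. Unlike those of *Pitx3* and *Meis1*, the intervals of *Six3*, *Tfap2a* and *Mab21l1* included 0, the widest being −0.31 to 0.34 for *Mab21l1*. All 3 comparisons with WT used the same WT libraries.

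**Figure D3:**
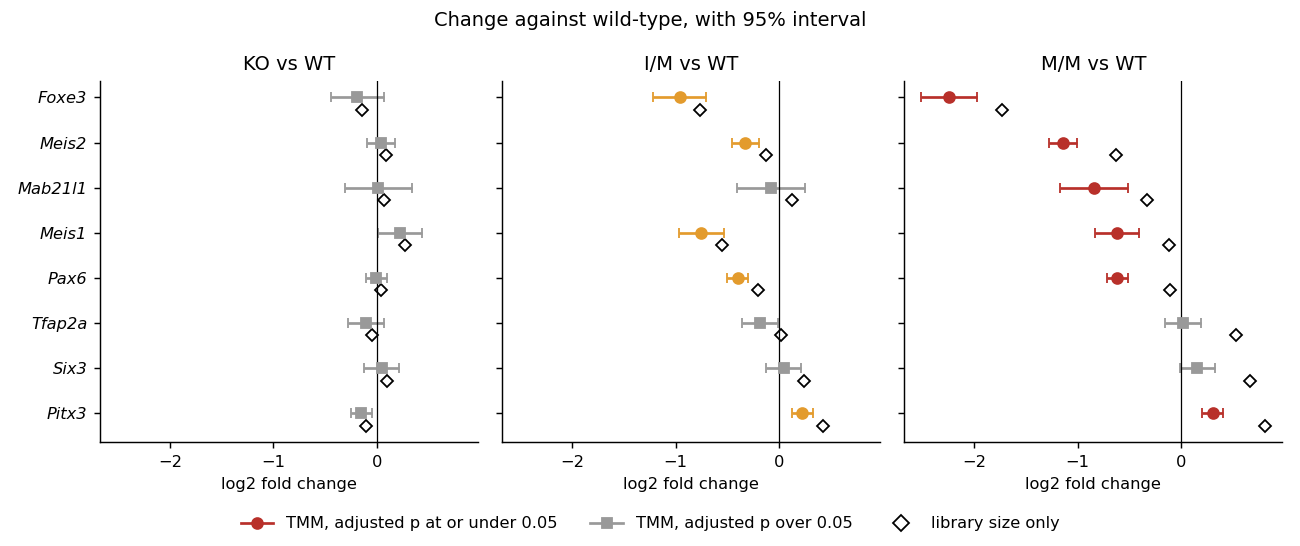
Log2 fold change of each gene against WT in KO, I/M and M/M lenses (filled symbols with 95% intervals, TMM-scaled) and the same with library size only (open diamonds). Gray squares mark genes that did not pass: all 8 in KO, 3 in I/M and 2 in M/M lenses, and the diamonds lie to the right of the filled symbols in M/M by about the shift of all genes, 0.50.

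The direct comparison of the mutant genotypes tested whether homozygous lenses differed from heterozygous ones. *Trpm3*-M/M lenses differed from *Trpm3*-I/M lenses in 5 of the 8 genes, 4 lower and 1 higher, where 51.3% of all tested genes did (25.7% lower and 25.6% higher). *Foxe3* was lower by a log2 fold change of −1.28 (standard error 0.12, edgeR adjusted p = 2.04e-06), *Meis2* by −0.82 (standard error 0.06, edgeR adjusted p = 2.70e-07) and *Mab21l1* by −0.76 (standard error 0.15, edgeR adjusted p = 9.47e-04). *Foxe3* alone passed with a fold change of at least 2, which 4.7% of all genes did (1.02% as lower), and fell short of it when only library size was used (−0.97). *Pax6* was lower by −0.22 (edgeR adjusted p = 0.00156), a direction that turned to 0.09 with library size only (adjusted p = 0.215). *Tfap2a* was higher by 0.20 (edgeR adjusted p = 0.0473), and lost this in 7 of 12 fits that each left out 1 library, at log2 fold changes from 0.14 to 0.26 over the 12 fits. *Meis1* did not pass (0.13, 95% interval −0.09 to 0.35), nor did *Pitx3* (0.08, 95% interval −0.02 to 0.18) or *Six3* (0.11, 95% interval −0.06 to 0.28). Scaled by library size only, 7 genes passed, where 6814 of 8984 tested genes did. *Foxe3*, *Meis2* and *Mab21l1* were lower and *Tfap2a* (0.51), *Meis1* (0.44), *Six3* (0.42) and *Pitx3* (0.39) higher. Without *Trpm3*-I/M replicate 3, *Foxe3* was at −1.36, *Mab21l1* at −0.84, *Meis2* at −0.81 and *Pax6* at −0.24, all past the test, and *Tfap2a* (0.21, adjusted p = 0.0830), *Meis1* (0.14), *Six3* (0.11) and *Pitx3* (0.06) did not pass.

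Homozygous mutant lenses were also compared with *Trpm3*-KO lenses, to set the substitution against loss of the gene. Of the 8 genes, 6 differed, 5 lower and 1 higher, where 64.8% of all tested genes did (32.4% lower and 32.3% higher), and these were the 6 that differed from WT. *Foxe3* had a log2 fold change of −2.05 (standard error 0.12, edgeR adjusted p = 9.71e-09) and *Meis2* of −1.18 (standard error 0.06, edgeR adjusted p = 2.77e-09), and both passed the fold change of 2 that 9.78% of genes passed (2.94% as lower). *Mab21l1* and *Meis1* were both lower by −0.85, and *Pax6* by −0.61. Of these, *Meis1* passed the filter only through the KO libraries, where it is highest. *Pitx3* was higher by 0.46 (standard error 0.05, edgeR adjusted p = 2.02e-06). *Six3* (0.11) and *Tfap2a* (0.12) did not pass. Scaled by library size only, all 8 passed, where 7623 of 8984 tested genes did. The same 5 were lower and *Pitx3*, *Six3* (0.57) and *Tfap2a* (0.58) higher, and the fall of *Meis2* (−0.72) was under a fold change of 2.

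Ratios of counts between members of one library do not depend on library scaling. They use the same counts as the tests above, so they are a description and not separate support. The *Foxe3* to *Pitx3* count ratio was 1.34, 1.11 and 0.939 in WT, 1.16, 1.00 and 1.13 in KO, 0.570, 0.458 and 0.453 in heterozygous and 0.186, 0.200 and 0.189 in homozygous mutant libraries. WT and *Trpm3*-KO overlapped, and each mutant genotype lay apart from both and from the other. *Foxe3* was the member that fell most and *Pitx3* the one that rose in *Trpm3*-M/M lenses, so this ratio restates their changes. The *Pax6* to *Pitx3* ratio ran from 0.997 to 1.16 in WT, 1.14 to 1.22 in KO, 0.683 to 0.690 in heterozygous and 0.513 to 0.604 in homozygous mutant libraries. The *Meis2* to *Pax6* ratio was 0.320 to 0.417 in WT, 0.359 to 0.405 in heterozygous and 0.243 to 0.268 in homozygous mutant libraries, so it separated only the homozygous lenses. The *Meis2* to *Meis1* ratio differed in direction between the mutants, from 6.44 to 7.33 in *Trpm3*-I/M against 3.26 to 3.88 in *Trpm3*-M/M libraries, and WT libraries at 4.205 to 6.27 lay between. *Six3* to *Pitx3* overlapped between WT (0.664 to 0.875) and *Trpm3*-M/M (0.638 to 0.728).

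**Figure D4:**
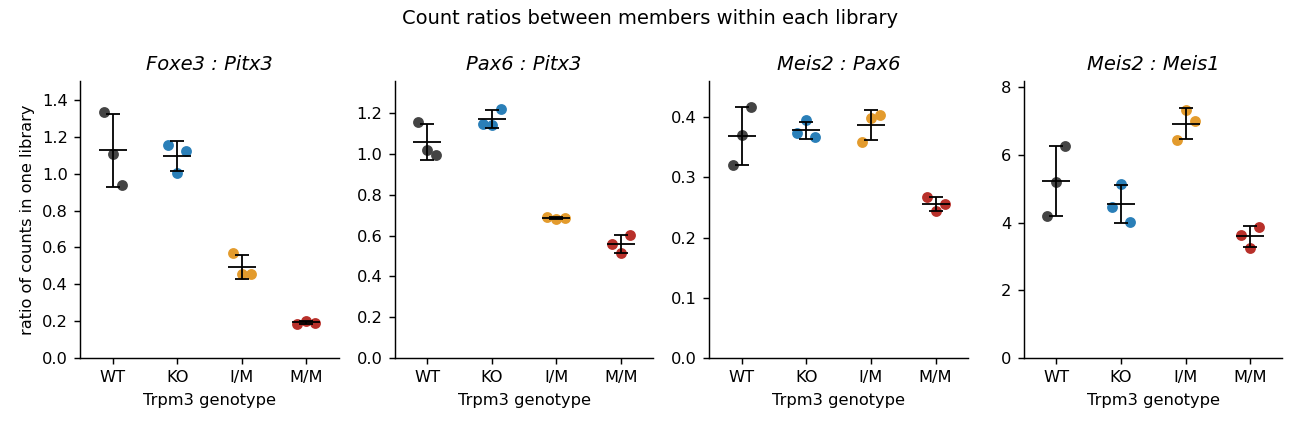
Ratio of the counts of 2 genes in each library (points) with the mean and SD of 3 libraries, by *Trpm3* genotype, linear axes from 0. The *Foxe3* to *Pitx3* ratio stood at 0.186 to 0.200 in M/M and 0.453 to 0.570 in I/M libraries, below all WT and KO libraries, and the *Meis2* to *Meis1* ratio was highest in I/M and lowest in M/M.

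Of 21 paralogs of the members and partners of MEIS proteins, 6 passed the expression filter, and in *Trpm3*-M/M lenses 3 fell and 1 rose. *Pknox1*, a TALE factor related to MEIS, fell by 0.33 on the log2 scale, and *Six5*, a relative of *Six3*, fell by 0.37. With library size only, the median of the 6 turned from −0.08 to 0.43, with 4 higher and 0 lower. None of the 6 reached a fold change of 2, and none passed in *Trpm3*-I/M lenses (edgeR), where *Pknox1* came nearest (−0.16, adjusted p = 0.0517; −0.14 and 0.144 without replicate 3). Paralogs below the filter, *Pitx1* and *Meis3* among them, were not tested.

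Of 14 other tested transcription regulators of the lens, 8 fell and 3 rose in *Trpm3*-M/M lenses, with a median log2 fold change of −0.20 against −0.62 for the 8 members and −0.0042 for all genes. Under library size only that median was 0.31, with 10 higher and 3 lower, so the direction of the list depends on the scaling. The members' median was then −0.11, with 3 higher and 3 lower. *Sox2*, an early lens partner of PAX6, went from 20.3 ± 2.65 to 4.44 ± 0.283 CPM (SD, n = 3) with a log2 fold change of −2.19 (edgeR adjusted p = 4.96e-10). *Etv5* and *Etv4*, ETS factors downstream of FGF signaling, rose by 2.08 and 4.32, where *Etv4*, at 0.321 CPM in WT, passed the expression filter only through the *Trpm3*-M/M libraries. *Sox2* (−1.09), *Etv5* (1.32) and *Etv4* (1.29) also passed both thresholds in *Trpm3*-I/M lenses, as they did without replicate 3 (−1.04, 1.37 and 1.09), and none of the 14 passed in *Trpm3*-KO lenses (edgeR).

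Other genes of the lens epithelium did not move in 1 direction. Of 11 tested, 6 rose and 3 fell in *Trpm3*-M/M lenses, with a median log2 fold change of 0.41, against −0.62 for the transcription factors. The keratin gene *Krt18*, the lysosomal protease gene *Ctsh*, the water channel gene *Aqp1* and *Igfbp5* rose by 4.26, 1.74, 1.61 and 1.27. *Krt18* and *Ctsh* passed the filter only through the *Trpm3*-M/M libraries, where they are high, and the median of the other 9 was 0.05. The amino acid transporter gene *Slc38a3* and the gap junction gene *Gja1* fell by 1.69 and 0.97, and the third was the growth factor receptor gene *Pdgfra*, named after its value was seen. By library size only 8 rose and 3 fell, with a median of 0.92 against −0.11 for the transcription factors. In *Trpm3*-KO lenses 3 genes of this list fell, *Trpm3* itself and, named after their values were seen, *Pdgfra* and *Cdh1*. Cell cycle genes showed 9 of 13 higher and 2 lower in homozygous lenses (11 and 0 under library size only), with the inhibitor gene *Cdkn1a* at 6.52. *Cdkn1a* and *Ccna2* passed the filter only through the *Trpm3*-M/M libraries, and of the other 11 genes 7 were higher and 2 lower. The fiber list (29 tested identifiers, with *Lim2* under 2 of them) had 26 lower and 0 higher, with a median of −0.84, and 22 lower and 3 higher with library size only. *Bfsp1* (−1.32) and *Crygb* (−1.37) were among its larger falls.

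RNA of other cell types moved with the genotype as well. The summed level of 10 vascular endothelium markers ran from 14.9 to 17.2 CPM in WT, 25.9 to 33.7 in heterozygous and 71.9 to 89.1 in homozygous mutant libraries, and 7 of 8 tested rose in *Trpm3*-M/M lenses, *Cldn5* (6.48) and *Cdh5* (5.31) among them. Of these 8, 6 passed the filter only through the *Trpm3*-M/M libraries, where they are high. The 14 fibroblast and pericyte markers ran from 80.7 to 95.8 CPM in WT and 277.2 to 418.5 in *Trpm3*-M/M libraries. All 6 tested rose, *Col1a1* by the largest fold change (8.71 on the log2 scale), but 4 of them passed the filter only through the *Trpm3*-M/M libraries, and the number became 3 when any 1 *Trpm3*-M/M library was left out. For 10 macrophage markers the sums were 0.436 to 0.570 and 10.4 to 22.4 CPM. Retina is a further source of *Pax6*, *Six3* and *Meis2* RNA, and its 20 markers summed to 5.73 to 6.61 CPM in WT and 10.5 to 14.4 CPM in *Trpm3*-M/M libraries, with the photoreceptor factor gene *Crx* at 0 to 0.0396 CPM in WT and 0.0759 to 0.513 CPM in *Trpm3*-M/M libraries, named after its values were seen. No retina, cornea or macrophage marker passed the filter. Pigmented cell markers summed to 23.9 to 26.1 CPM in WT and 14.5 to 15.3 in *Trpm3*-M/M libraries, of which *Mitf* made up most. The 10 cornea and surface epithelium markers summed to 1.75 to 1.76 and 5.28 to 11.7 CPM, and the 7 red blood cell markers to 1.22 to 12.04 and 12.4 to 15.0 CPM. The part of these cells in the members' results was not tested.

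**Figure D5:**
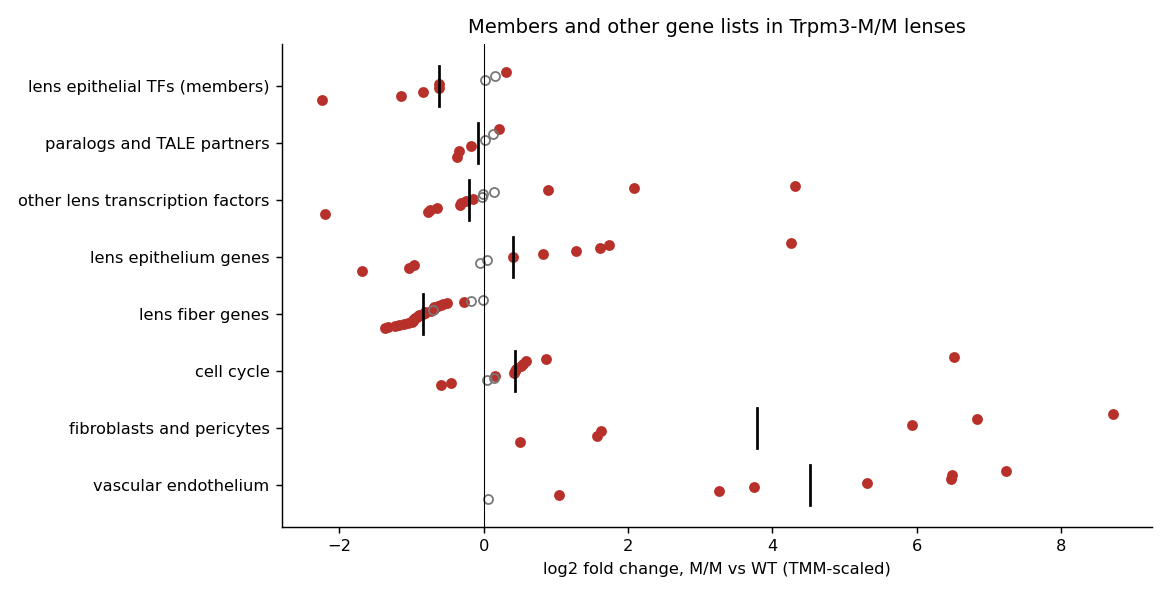
Log2 fold change in *Trpm3*-M/M against WT lenses of every tested gene of the members and 7 other lists (filled red points passed at adjusted p of 0.05 or less, open points did not, black bars are medians). The members' median of −0.62 lies between those of the fiber list at −0.84 and the other lens transcription factors at −0.20, while the lens epithelium list has its median at 0.41, or 0.05 without the 2 genes tested only through their *Trpm3*-M/M levels. All values shown are TMM-scaled. With library size only these medians were −0.11, −0.33, 0.31 and 0.92, in the same order.

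For each member past the test, the 3 tested genes with the most similar pattern of log2 CPM over the 12 libraries (Pearson r) are given as a description. The points share their genotype and library scaling. Ranked by Spearman correlation, 2 of the 3 genes recurred for *Mab21l1* and 0 for each of the other 5 members. *Foxe3* was closest to *Gask1b* (Pearson r = 0.988), the polysialyltransferase gene *St8sia2* (0.988) and the secreted WNT modulator gene *Sfrp1* (0.987). *Pax6* was closest to the nuclear pore gene *Nup210* (0.989), the WNT receptor gene *Fzd1* (0.988) and the FGF receptor gene *Fgfr2* (0.986), and *Fgfr2* had nearly the same log2 fold change as *Pax6* in *Trpm3*-M/M lenses, −0.64. *Meis2* was closest to the phospholipase gene *Plaat3* (0.992), *Zfyve28* (0.992) and *Marchf3* (0.992). *Meis1* was closest to *Pyroxd2* (0.969), *Nrbp2* (0.960) and the folate enzyme gene *Mthfd2* (0.959). *Mab21l1* was closest to *Zfp60* (0.977), *Mthfsd* (0.958) and *Dnajc11* (0.957), and *Pitx3* to *Kctd12* (0.979), *Ywhab* (0.978) and *Vdac3* (0.977).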

How the data were processed

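RNA from P7 mouse lenses was measured in 12 libraries, assigned to genotype by the sample labels. Reads were aligned and quantified by the authors with DRAGEN (mm10, an Ensembl annotation), and estimated counts per gene were deposited by the authors without normalization. Of these values 88.4% were whole, zeros included. Zeros stay whole under any scaling, so this share cannot test whether the values were normalized. Whole counts had been assumed when the tests were chosen, and the values were rounded. A table of the authors' comparisons (fold changes and p-values) was not used.

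A filter of 5 CPM or more in 3 or more libraries kept 8984 of 55487 genes, which were scaled by TMM and tested with edgeR 4.0.16 under R 4.3.3 (quasi-likelihood, all 12 libraries in 1 fit, genotype only, Benjamini-Hochberg adjustment within each of 5 comparisons). The standard error was the log2 fold change over the root of F. DESeq2 1.42.0, other scalings and filters, a replicate block and left-out libraries were the alternatives. The procedure was tested on simulated data. Replicates were checked and differed beyond sampling noise (chi-square per gene from 8.76 to 57.4). Totals of 56162169 to 82090198 counts set the precision. Exon lengths were from GENCODE M21 and sequences from RefSeq, and figures were drawn with matplotlib 3.10.9.

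The members and gene lists were chosen with earlier results of these data known. Beyond the 8 members, overlapping genes and Trpm3, the rule named paralogs past the filter, genes of other lists past an adjusted p of 0.05 with a fold change of at least 2 against WT (at most 4 per list and comparison), and the 3 genes most like each member past the test. Some genes that this rule names are not reported here.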

Additional observations from a re-analysis of the deposited data

How the results depend on the processing

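Under every alternative scaling, filter and count test, the number of members past the test stayed within 1.5 times that with TMM factors. This also held with any 1 library left out. Within that bound the number did change. With library size only, 4 members were higher and 3 lower in M/M against I/M, where 6814 of 8984 tested genes passed. In M/M against KO 3 were higher and 5 lower with library size only, where 7623 tested genes passed. Some left-out libraries changed it as well, and only the added fold change threshold moved it further. With a fold change of at least 2 the counts were 2 in M/M against WT, 0 in I/M against WT, 1 in M/M against I/M and 2 in M/M against KO, and KO against WT stayed at 0 under all alternatives. Of 800 values of single members under alternatives, 777 stayed on their side of the threshold, and 11 lost and 11 gained a call. In 1 further case the call was lost and the sign turned. Pax6 in M/M against I/M was 0.0892 with library size only (edgeR adjusted p = 0.215). Library size only accounted for 12 of the 23 changes of call, a CPM of at least 1 for 1 and left-out libraries for 10. Replicate numbers did not pair the samples (2 of 18 same-numbered pairs correlated above 0.1, from −0.264 to 0.149, and 0 libraries correlated best with their own number), and the replicate block left the counts at 6, 5, 0, 5 and 6 for M/M, I/M and KO against WT, M/M against I/M and M/M against KO. Tfap2a in I/M against WT passed without KO replicate 1 (−0.18, adjusted p = 0.0392) and Pitx3 in M/M against I/M passed without M/M replicate 3 (0.13, adjusted p = 0.0405). Without a filter on low counts, the number of genes past the test rose from 5637 to 9323 in M/M and from 392 to 1191 in KO against WT, from 4608 to 7440 in M/M against I/M and from 5818 to 9916 in M/M against KO. With library size only it rose from 2929 to 5016 in I/M against WT, and without KO replicate 2 or 3 it was 235 or 234 in KO against WT. With library size only the share of called genes that were higher was 92.9% in I/M (53.0% with TMM factors), 68.9% in KO (49.5%), 92.8% in M/M against I/M (49.9%) and 91.9% in M/M against KO (49.9%). The cause was not tested.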
